A study of Homo sapiens with 647 samples.

Results

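IDO1, TGM2 and LBP are 3 genes of the 54592 counted in T47D cells, an estrogen receptor positive breast cancer line. They were chosen by their log2 fold change between cells given the MEK inhibitor trametinib and cells given the FGFR inhibitor FIIN-3, so that difference is described here without a test. RNA was sequenced by SMART-Seq2. T47D cells had been infected anew with lentivirus (plasmid pLX307) carrying FGFR2_WT, FGFR2_M538I, FGFR2_N550K, FGFR2_K660N, FGF3, FGFR1 or GFP, or were the parental line. GFP and parental are called control lines below, and the others the FGFR2 lines, the FGFR1 line and the FGF3 line. The labels do not say whether a line was a clone or a pool, nor whether the libraries of a group came from separate cultures, so the p-values speak of the spread among these libraries alone, part of which may be technical. Cells were plated in 96-well plates for 48 h and treated for 24 h. The agents were trametinib (Tram, 500 nM), FIIN-3 (100 nM), palbociclib (Palbo, 1 µM), fulvestrant (Fulv, 100 nM) and the growth factor FGF2, at a dose the labels do not state. The sample numbers ran through 2 times, and each run is treated as a set. In set 1, the groups were Fulv+FGF2+Tram, Fulv+FGF2+FIIN-3, Fulv+Palbo+FGF2, Fulv+FGF2, Fulv, FIIN-3+FGF2, FGF2 and DMSO in the FGFR2, FGFR1 and control lines. FGFR2_N550K also had FIIN-3 and Fulv+FIIN-3. In set 2, those lines had Fulv+Palbo+FGF2+Tram, Fulv+Palbo+FGF2+FIIN-3, Palbo+FGF2+FIIN-3, Palbo+FGF2, Palbo and FIIN-3. The FGF3 line, which supplies its own FGF ligand, had no arm with FGF2: its groups were Fulv+Tram, Fulv+FIIN-3, Fulv+Palbo, Fulv, FIIN-3 and DMSO in set 1, and Fulv+Palbo+Tram, Fulv+Palbo+FIIN-3, Palbo+FIIN-3, Palbo, FIIN-3 and an untreated group labelled control in set 2.

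IDO1 encodes indoleamine 2,3-dioxygenase, the interferon-inducible enzyme that takes the first and rate-limiting step from tryptophan to kynurenine, and it is known for restraining T cells. TGM2 encodes tissue transglutaminase, which crosslinks proteins through glutamine and lysine side chains and is a known retinoic acid target. LBP encodes the lipopolysaccharide-binding protein, an acute-phase protein secreted mainly by liver that hands bacterial lipopolysaccharide to CD14. FGF receptors signal through RAS, RAF, MEK and ERK and also through other branches. FIIN-3 binds the receptor irreversibly, while trametinib blocks MEK1 and MEK2 further down. Fulvestrant degrades the estrogen receptor and palbociclib inhibits CDK4 and CDK6.

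In GENCODE 29 on GRCh38, which is not the build of the counts, IDO1 (ENSG00000131203.12) lies on the plus strand of chromosome 8 at 39902275 to 39928444. The antisense genes AC007991.3 and AC007991.4 overlap it. LBP (ENSG00000129988.5) lies on the plus strand of chromosome 20 at 38346356 to 38377023. TGM2 (ENSG00000198959.11) lies on the minus strand of the same chromosome at 38127387 to 38166578, and its 3′ end overlaps RPRD1B. The labels do not state whether reads were counted by strand, so reads of the overlapping genes cannot be told apart there.

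Total counts per library ran from 512961 to 13012180 in set 1 and from 619509 to 4804935 in set 2. The introduced genes were high in their own lines under DMSO: median FGFR2 ran from 157.2 CPM (read counts scaled to the library size) in FGFR2_WT to 548.2 CPM in FGFR2_K660N, against 14.04 CPM in GFP cells, FGFR1 was 428.4 CPM in the FGFR1 line, against 7.06 CPM in GFP cells, and FGF3 was 147.6 CPM in the FGF3 line, against 0 in GFP cells. All 8 luminal markers looked for were read in every library of the FGFR2 lines compared below. In 14 libraries of set 1 and 2 of set 2 the mitochondrial rRNA MT-RNR2 took under 5% of the counts, and these stand apart from the rest. Of them, 12 belong to FGFR2 lines of set 1, with FGFR2 at 27.9 to 108.3 CPM, below every other library of their group. The highest control library had 34.1 CPM of FGFR2, and 11 of the 12 lay above it. FGFR2_K660N Fulv+FGF2+FIIN-3 replicate 1, at 27.9 CPM, did not, so its introduced gene goes against its label. The one FGFR1 library (DMSO) and the one FGF3 library (control, set 2) that stand apart were also below the rest of their groups for the introduced gene. Levels below are CPM on TMM-scaled library sizes, with values without the libraries that stand apart beside those that they move most.

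All 3 genes were low or not read in most groups. IDO1 had reads in 31.65% of the libraries of set 1 and 18.08% of set 2, LBP in 54.52% and 38.75%, and TGM2 in 68.88% and 50.18%. No library of the group had an IDO1 read in 28 of 64 groups of set 1 and 31 of 48 groups of set 2, while this held for LBP in 7 and 8 groups and for TGM2 in 0 and 7. A median of at least 5 CPM was reached by IDO1 in 8 groups of set 1 and 6 of set 2, by LBP in 9 and 5, and by TGM2 in 14 and 8. For IDO1 and LBP, every group at that level was an FGFR2 line, while the FGF3 line was among those for TGM2. In set 1, the IDO1 medians ran in the order FGFR2_M538I Fulv+FGF2+Tram (58.02 CPM), FGFR2_N550K Fulv+FGF2+Tram (14.5 CPM), FGFR2_N550K Fulv+Palbo+FGF2 (12.7 CPM) and FGFR2_K660N Fulv+FGF2+Tram (9.69 CPM). Without 1 library of each that stands apart, the last 2 medians were 2.95 and 13.85 CPM. The LBP order was FGFR2_N550K (49.9 CPM), FGFR2_K660N (39.5 CPM) and FGFR2_M538I (34.3 CPM), all under Fulv+FGF2+Tram, and then FGFR2_K660N under Fulv+Palbo+FGF2 (18.4 CPM). For TGM2, FGFR2_N550K (28.2 CPM), FGFR2_K660N (22.4 CPM) and FGFR2_M538I (22.1 CPM) under Fulv+FGF2+Tram stood above the FGF3 line under Fulv (21.7 CPM). In set 2, the highest IDO1 medians were 18.5 CPM in FGFR2_K660N and 16.8 in FGFR2_N550K, both under Fulv+Palbo+FGF2+Tram. Groups without trametinib came next, FGFR2_M538I under Palbo+FGF2 (14.2 CPM) and FGFR2_K660N under Palbo (12.2 CPM). The ranges of neighbours in these orders overlapped, over groups with a median above 0. In set 1 this held for 20 of 20 neighbouring pairs for IDO1, 48 of 48 for TGM2 and 41 of 41 for LBP. In set 2 it held for 9 of 9, 25 of 25 and 20 of 20. Neighbours sorted by median, many with libraries at 0, overlap almost by construction, so this is no test of a difference.

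**Figure D1:**
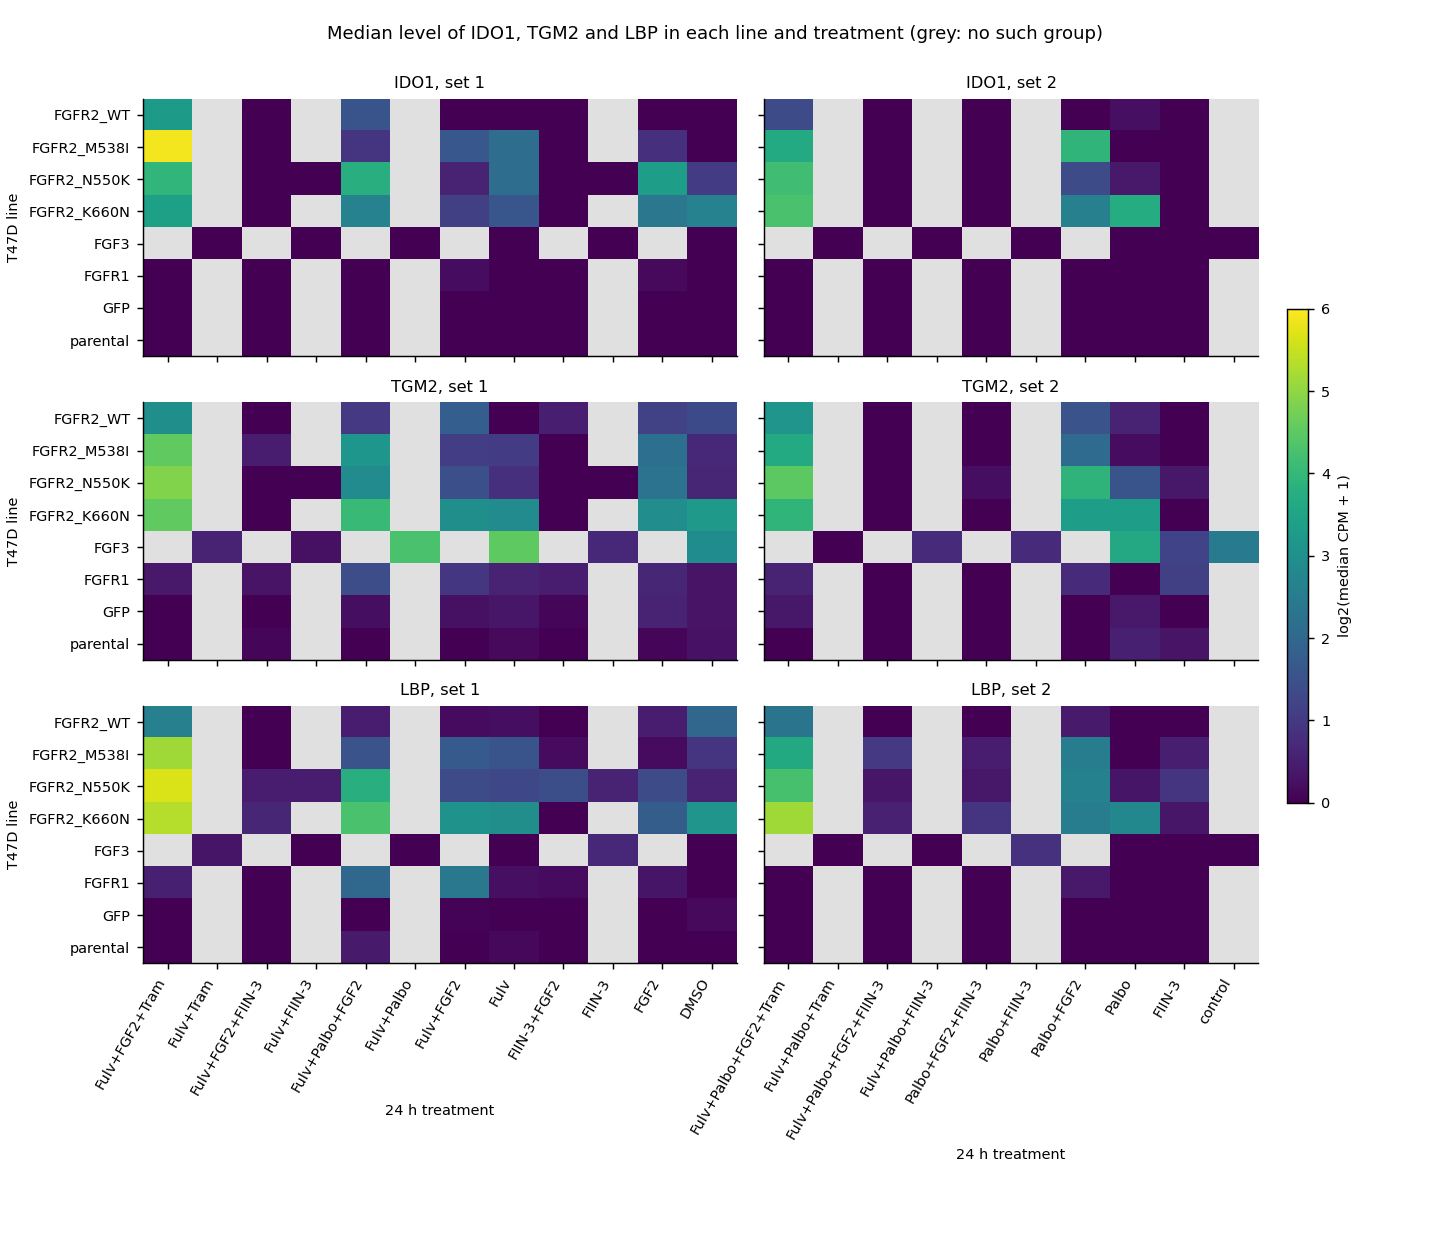
Median level of IDO1, TGM2 and LBP (rows of panels) in set 1 (left) and set 2 (right), as log2(median CPM + 1), for each line (vertical axis) and 24 h treatment (horizontal axis), with grey where a line had no such group. Among the brightest cells are FGFR2 lines under trametinib, though FGFR2_WT is lower there than the others, FGFR2_N550K and FGFR2_K660N under some palbociclib treatments without trametinib and, for TGM2, the FGF3 line without an FGFR or MEK inhibitor, while the FIIN-3 columns are at 0 for IDO1.

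Under trametinib in set 1, IDO1 was read in the FGFR2 lines at 0 to 194.5 CPM with a median of 12.4 (Fulv+FGF2+Tram, 24 libraries), against 0 to 0.229 CPM with a median of 0 under FIIN-3 (Fulv+FGF2+FIIN-3, 24 libraries). The counts behind this were 5615 reads under trametinib and 3 under FIIN-3, a ratio of 1638 with a 95% counting interval of 560.1 to 7944. Intervals and limits from counts cover counting error only. The fitted log2 fold change was 9.76 ± 0.80 (standard error, edgeR), and 22 of 24 trametinib libraries lay above the highest FIIN-3 library. LBP was 0 to 315.1 CPM with a median of 16.6 under trametinib, against 0 to 5.83 CPM with a median of 0.157 under FIIN-3. Its log2 fold change was 6.69 ± 0.63, and 17 of 24 trametinib libraries lay above all FIIN-3 libraries. TGM2 was 0 to 58.7 CPM with a median of 18.02 under trametinib, against 0 to 1.30 CPM with a median of 0 under FIIN-3. Its log2 fold change was 6.01 ± 0.49, again with 22 of 24 libraries above. These values chose the genes and carry no test; 50.3% of all genes tested in this contrast passed an adjusted p of 0.05 by edgeR's quasi-likelihood test. In bulk samples, fewer cells that express a gene and less RNA per cell cannot be told apart.

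Per unit of transcript length, LBP stood above IDO1 and IDO1 above TGM2 in these trametinib libraries, though the ranges overlapped. In the deposited TPM values, LBP had a median of 19.1 TPM (0 to 407.2), IDO1 10.3 TPM (0 to 133.5) and TGM2 7.44 TPM (0 to 30.7). Under FIIN-3 the TPM medians were 0.158 for LBP and 0 for both other genes.

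Each FGFR2 line showed the separation, and its size differed among lines. IDO1 under trametinib was 0, 2.57, 6.31, 11.04, 22.2 and 27.03 CPM in FGFR2_WT, while all FIIN-3 libraries of that line were at 0. In FGFR2_M538I the trametinib libraries had 0, 3.08, 50.4, 65.6, 108.3 and 194.5 CPM of IDO1, again with none read under FIIN-3. Against a floor of 3 counts over the FIIN-3 group, IDO1 was at least 165.3-fold higher in FGFR2_WT and at least 1108-fold higher in FGFR2_M538I. In FGFR2_N550K, trametinib libraries had 1.46, 3.46, 5.16, 23.8, 44.7 and 120.9 CPM, against at most 0.229 CPM under FIIN-3. FGFR2_K660N had 1.75, 5.13, 5.52, 13.8, 14.4 and 53.5 CPM under trametinib, against at most 0.156 CPM under FIIN-3. The library at 5.52 CPM (replicate 3) stands apart and had 46.95 CPM of FGFR2, against 642.4 to 992.8 in the rest of its group. In the FIIN-3 arm, replicate 1 had 27.9 CPM of FGFR2, against 263.3 to 772.4 in the rest. Without both, the trametinib medians of FGFR2_K660N were 13.85 CPM of IDO1, 26.95 of TGM2 and 39.7 of LBP, and the FIIN-3 medians were 0, 0 and 0.424 CPM. The arms of FGFR2_N550K and FGFR2_K660N did not overlap for IDO1 or TGM2, and for LBP only FGFR2_K660N had arms that did not overlap. Median LBP under trametinib was 49.9 CPM in FGFR2_N550K (3.71 to 297.2), 39.5 in FGFR2_K660N (6.63 to 58.1), 34.3 in FGFR2_M538I (0 to 315.1) and 5.17 in FGFR2_WT (0 to 11.5). TGM2 kept to a narrower range, with medians of 28.2 CPM in FGFR2_N550K, 22.4 in FGFR2_K660N, 22.1 in FGFR2_M538I and 6.96 in FGFR2_WT. The pooled ratio of trametinib over FIIN-3 was lowest in FGFR2_WT for TGM2 (27.9), against 51.2 in FGFR2_M538I, 109.8 in FGFR2_K660N and 212.9 in FGFR2_N550K. For LBP it was 426.7 in FGFR2_M538I, 60.1 in FGFR2_N550K and 74.3 in FGFR2_K660N, while in FGFR2_WT, with 2 counts under FIIN-3, its counting interval was 35.95 to 1086.

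In set 2, where palbociclib was added to both arms, the 3 genes again stood higher under trametinib (Fulv+Palbo+FGF2+Tram, 23 libraries) than under FIIN-3 (Fulv+Palbo+FGF2+FIIN-3, 22 libraries). IDO1 was 0 to 50.9 CPM with a median of 11.2 under trametinib and had no read in any FIIN-3 library, so it was at least 379.4-fold higher. TGM2 was 3.88 to 34.9 CPM with a median of 12.97 under trametinib, against 0 to 1.87 CPM with a median of 0 under FIIN-3. Its arms did not overlap in any of the 4 lines, with a log2 fold change of 5.56 ± 0.31, beside 54.7% of all genes tested past the threshold in this contrast. LBP was 0 to 59.2 CPM with a median of 13.7 under trametinib, against 0 to 6.86 CPM with a median of 0.290 under FIIN-3. Its log2 fold change was 4.23 ± 0.38, and its arms overlapped in FGFR2_WT. The lines kept some of their order: FGFR2_WT again had the lowest trametinib medians, with 1.63 CPM of IDO1, 7.79 of TGM2 and 3.96 of LBP. FGFR2_K660N had the highest medians of IDO1 (18.5 CPM) and LBP (34.2 CPM), and FGFR2_N550K of TGM2 (21.5 CPM). This is the same measure in other libraries, but the choice of the genes used both sets, so it is no independent support.

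**Figure D2:**
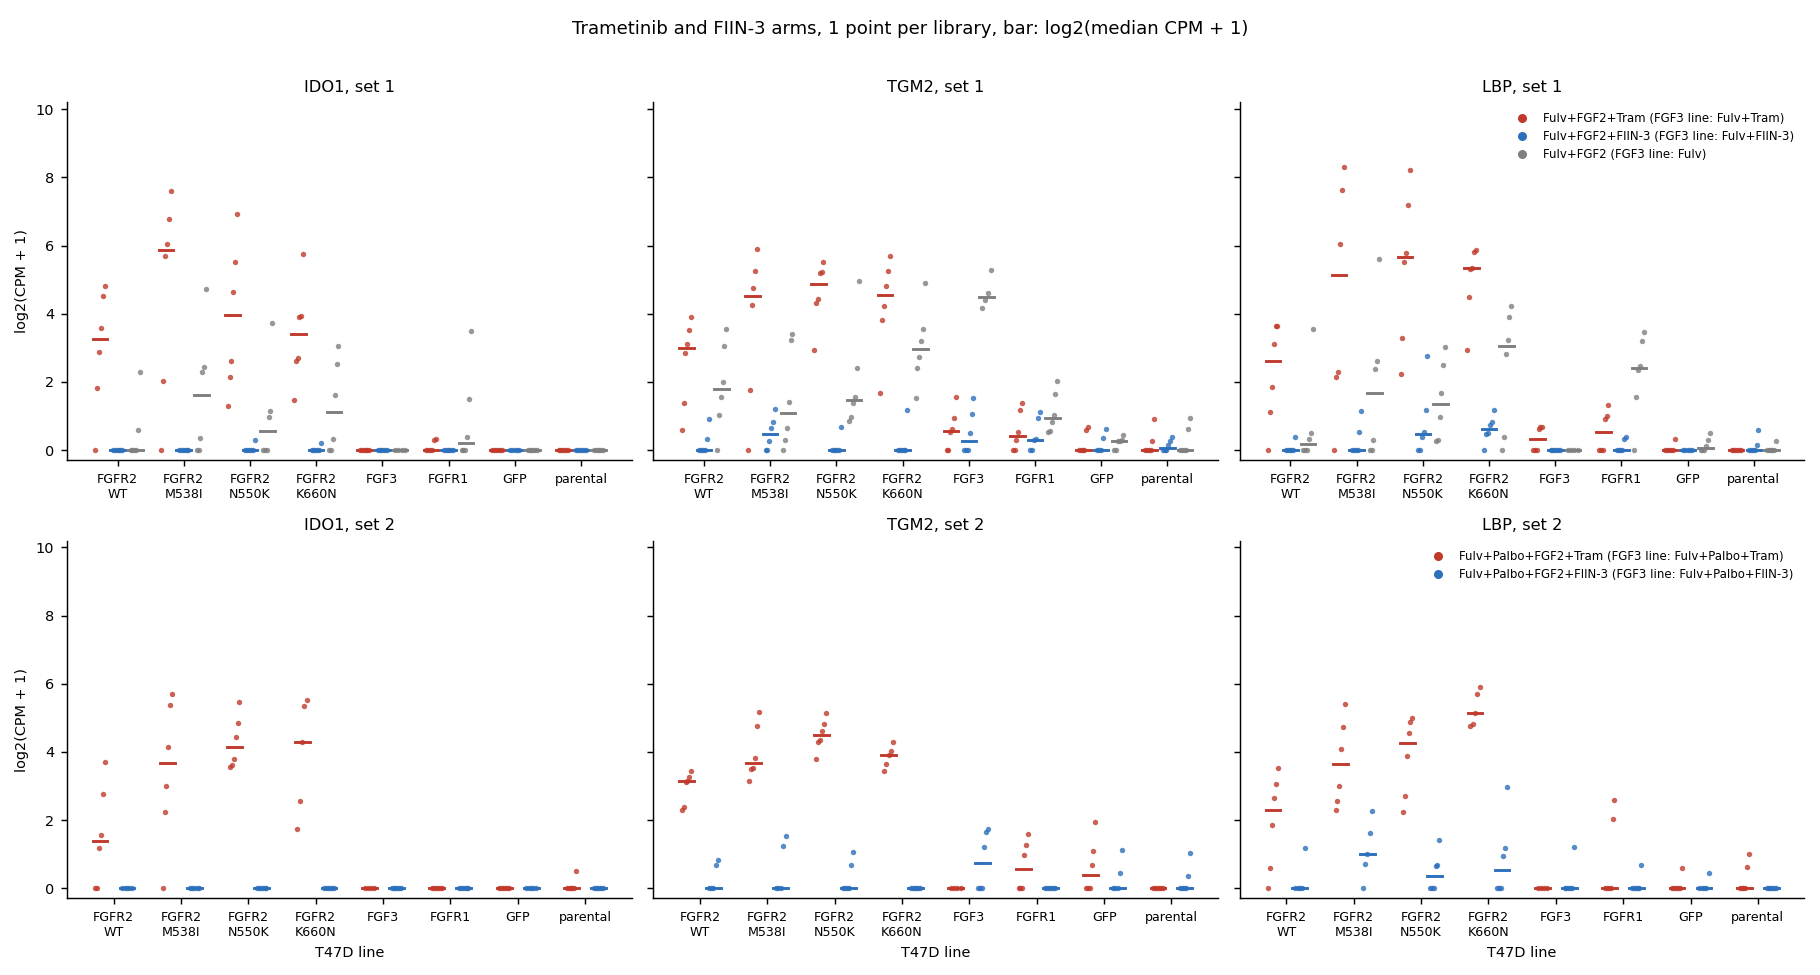
Level of IDO1, TGM2 and LBP as log2(CPM + 1) in each library, by line, under trametinib (red), FIIN-3 (blue) and, in set 1, neither inhibitor (grey), with a bar at log2(median CPM + 1). Set 1 is above and set 2 below. Trametinib libraries of the 4 FGFR2 lines lie well above their FIIN-3 libraries apart from a few at or near 0, while the FGFR1 line and the control lines show little of any of the 3 genes in both arms.

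The same libraries tended to carry all 3 genes. In set 1, 22 of 24 trametinib libraries of the FGFR2 lines had IDO1, TGM2 and LBP each at 1 CPM or more, while none of the 24 FIIN-3 libraries did. Of the other 2 trametinib libraries, FGFR2_M538I replicate 2 had no read of any of the 3 genes, although it had 6538019 counts in total. FGFR2_WT replicate 4 had no read of IDO1 or LBP and 0.505 CPM of TGM2. In set 2, 19 of 23 trametinib libraries and 0 of 22 FIIN-3 libraries had all 3 genes at 1 CPM or more. Within lines, the trametinib libraries of set 1 gave r = 0.807 between IDO1 and LBP, 0.719 between IDO1 and TGM2 and 0.663 between TGM2 and LBP, on log2(CPM + 1) over 24 libraries. In set 2 these were 0.39, 0.502 and 0.289 over 23 libraries. Libraries of a group share a line and a treatment, so these correlations are descriptions only.

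The control lines showed no such separation that could be read at this depth. In set 1, IDO1 had no read in 12 trametinib libraries or 11 FIIN-3 libraries of GFP and parental cells. TGM2 was 0 to 0.897 CPM under trametinib, against 0 to 0.523 CPM under FIIN-3, both with a median of 0, from 19 and 11 counts. LBP had 2 counts under trametinib and 3 under FIIN-3. In set 2, trametinib arms had 1 count of IDO1, 12 of TGM2 and 6 of LBP, against 0, 8 and 1 under FIIN-3. Over all genes, 42.5% in set 1 and 38.6% in set 2 passed the threshold between these arms of the control lines. Against Fulv+FGF2, 27.3% of genes passed under trametinib and 24.3% under FIIN-3 in the control lines, where IDO1 had no read in any of the 3 arms and neither LBP nor TGM2 reached 1 CPM in any library.

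In the FGFR1 line the 3 genes also stayed low in both of these arms. Median TGM2 was 0.333 CPM under trametinib and 0.241 CPM under FIIN-3 in set 1, where 30% of all genes tested passed the threshold. LBP had 28 counts under trametinib and 4 under FIIN-3, a ratio of 5.15 per library size, and IDO1 had 4 counts and 0. In set 2, where 25.1% of genes passed, TGM2 had 10 counts under trametinib and 0 under FIIN-3, LBP 20 and 2, and IDO1 0 in both.

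Set against Fulv+FGF2 without either inhibitor, the FGFR2 lines lay higher under trametinib and lower under FIIN-3. These comparisons reuse the libraries that chose the genes and share the Fulv+FGF2 arm, so they carry no test. The Fulv+FGF2 libraries had 0 to 25.5 CPM of IDO1 with a median of 0.272, 0 to 29.9 CPM of TGM2 with a median of 2.48, and 0 to 47.7 CPM of LBP with a median of 0.704. Trametinib over Fulv+FGF2 gave log2 fold changes of 3.50 ± 0.59 for IDO1, 3.14 ± 0.62 for LBP and 1.73 ± 0.43 for TGM2, beside 28.1% of all genes past the threshold. Only 8, 8 and 7 of the 24 trametinib libraries lay above every Fulv+FGF2 library for IDO1, LBP and TGM2. FIIN-3 over Fulv+FGF2 gave -6.18 ± 0.89 for IDO1, -4.20 ± 0.56 for TGM2 and -3.25 ± 0.68 for LBP, beside 57.9% of all genes. TGM2 was 22.1-fold lower and LBP 11.1-fold lower under FIIN-3 in pooled CPM. By line, the trametinib ratio ran from 7.31 in FGFR2_K660N to 15.3 in FGFR2_WT for IDO1, from 1.61 in FGFR2_WT to 6.68 in FGFR2_M538I for TGM2 and from 3.01 in FGFR2_WT to 31.2 in FGFR2_N550K for LBP.

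In the FGFR1 line, LBP was lower under trametinib than without an inhibitor. Its median was 0.44 CPM under Fulv+FGF2+Tram, against 4.31 CPM under Fulv+FGF2, with a log2 fold change of -3.10 ± 0.78, and 11.3% of all genes passed the threshold there. Under Fulv+FGF2+FIIN-3 LBP had a median of 0 from 4 counts, 48.4-fold lower than under Fulv+FGF2 in pooled CPM, beside 29.7% of all genes past the threshold. Fulv+FGF2 over Fulv in the FGFR1 line had LBP at 0 to 10.03 CPM with a median of 4.31, against 0 to 0.486 CPM with a median of 0.187, and 5 of 6 libraries lay above every Fulv library. LBP was under the low-count filter of edgeR there. DESeq2, run as an alternative, gave a log2 fold change of 4.66 ± 1.06 with an adjusted p of 0.0001474, beside 26.7% of genes called by edgeR.

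Comparisons that used no library of the trametinib against FIIN-3 contrasts were tested. There were 35 such comparisons for each of the 3 genes. The filter on low counts left 30 tests (8 of IDO1, 13 of TGM2 and 9 of LBP), of which 11 passed an adjusted p of 0.05 by edgeR's quasi-likelihood test with Benjamini-Hochberg adjustment over all genes: 3 for IDO1 (1 higher and 2 lower), 5 for TGM2 (3 higher and 2 lower) and 3 for LBP (1 higher and 2 lower). Of the 75 left untested for low counts, 22 passed with no filter and 5 by DESeq2. A gene that is high in 1 arm alone can pass the filter through that arm, so the counts over those tested say nothing about the rest.

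FIIN-3 added to FGF2 lowered all 3 genes over the 4 FGFR2 lines pooled. IDO1 had no read in 23 FIIN-3+FGF2 libraries, against 0 to 57.7 CPM with a median of 2.55 in 24 FGF2 libraries of set 1, and was at least 297.7-fold lower (edgeR adjusted p = 3.507e-07). It passed the filter on low counts through the FGF2 arm alone, and its p is to be read with that limit. The 3 of 3 members that passed stand beside 55.5% of all genes tested in this comparison, so a pass here is common. TGM2 was 0 to 1.96 CPM with a median of 0 under FIIN-3+FGF2, against 0.231 to 25.6 CPM with a median of 3.59 under FGF2. It fell by 3.84 ± 0.50 on the log2 scale (edgeR adjusted p = 4.057e-09), and its arms did not overlap in FGFR2_M538I and FGFR2_K660N. Only 2 of 23 FIIN-3+FGF2 libraries had TGM2 at 1 CPM or more. TGM2 thus also passed the filter through the FGF2 arm, and its p carries the same limit. LBP was 0 to 3.84 CPM with a median of 0.266 under FIIN-3+FGF2, against 0 to 21.4 CPM with a median of 0.648 under FGF2. It fell by 2.08 ± 0.66 (edgeR adjusted p = 0.006401). The lines were uneven for LBP: FGFR2_K660N had 2 counts under FIIN-3+FGF2, a ratio to FGF2 of 0.00713 (counting interval 0.000859 to 0.0260), while FGFR2_M538I had 32 counts under FIIN-3+FGF2, against 30 under FGF2. In FGFR2_N550K the LBP median did not lie lower with FIIN-3: it was 1.72 CPM under FIIN-3+FGF2 (0.472 to 3.65, read in 6 of 6 libraries), against 1.58 CPM under FGF2 (0 to 19.6, read in 3 of 6). For TGM2 the pooled fall was 2.81-fold in FGFR2_WT, 18.4-fold in FGFR2_N550K, 26.7-fold in FGFR2_K660N and 27.7-fold in FGFR2_M538I.

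The same held in set 2 with palbociclib in both arms. IDO1 had no read in 23 Palbo+FGF2+FIIN-3 libraries, against 0 to 96.3 CPM with a median of 1.17 in 22 Palbo+FGF2 libraries, and was at least 209.3-fold lower (edgeR adjusted p = 5.152e-08). Again it passed the filter through the arm without FIIN-3 alone. TGM2 and LBP passed it mainly through that arm: with FIIN-3, 4 and 5 of 23 libraries had 1 CPM or more. Their p-values below are to be read with that limit. Over all genes 54.1% passed. TGM2 was 0 to 4.02 CPM with a median of 0 with FIIN-3, against 0 to 74.4 CPM with a median of 4.43 without it, and fell by 4.58 ± 0.50 on the log2 scale (edgeR adjusted p = 5.08e-12). LBP was 0 to 10.17 CPM with a median of 0 with FIIN-3, against 0 to 82.2 CPM with a median of 1.83 without it, and fell by 3.22 ± 0.57 (edgeR adjusted p = 2.142e-06). High and low libraries overlapped for each gene, since some Palbo+FGF2 libraries had no read of it.

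**Figure D3:**
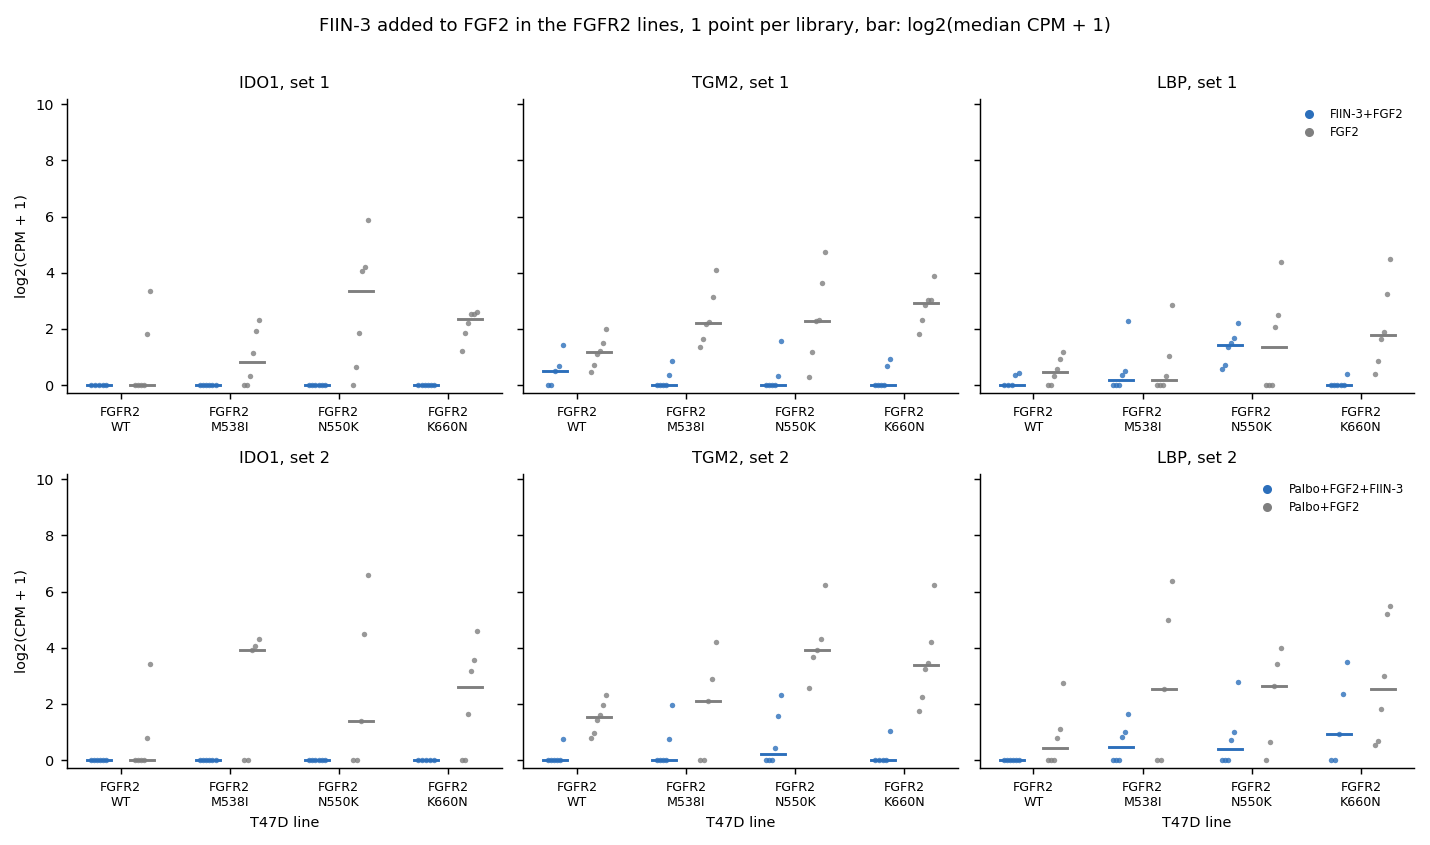
Level of IDO1, TGM2 and LBP as log2(CPM + 1) in each library of the 4 FGFR2 lines with FIIN-3 (blue) and without it (grey), with a bar at log2(median CPM + 1): FIIN-3+FGF2 and FGF2 in set 1, and Palbo+FGF2+FIIN-3 and Palbo+FGF2 in set 2. IDO1 is at 0 in every blue point, while TGM2 and LBP keep low values in some.

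Palbociclib added to Fulv+FGF2 raised IDO1 over the 4 FGFR2 lines pooled, but not in each line. Its median was 3.40 CPM under Fulv+Palbo+FGF2, against 0.272 CPM under Fulv+FGF2 (24 libraries each), with a log2 fold change of 2.50 ± 0.73 (edgeR adjusted p = 0.005377), and 35% of all genes tested passed. By line, the IDO1 median rose from 0 to 1.92 CPM in FGFR2_WT, from 0.484 to 12.7 in FGFR2_N550K and from 1.18 to 5.36 in FGFR2_K660N. It fell from 2.08 to 0.889 CPM in FGFR2_M538I. Without the library that stands apart, the FGFR2_N550K median under Fulv+Palbo+FGF2 was 2.95 CPM. In FGFR2_K660N under Fulv+Palbo+FGF2, 1 library had 107.7 CPM and the next 8.51. LBP had a median of 5.66 CPM under Fulv+Palbo+FGF2, against 0.704 CPM under Fulv+FGF2, and its change of 1.45 ± 0.63 did not pass (edgeR adjusted p = 0.06941), though it did with no filter and with a replicate block. TGM2 had 5.64 CPM, against 2.48 CPM, and a change of 0.51 ± 0.48 that did not pass (edgeR adjusted p = 0.4348). In the FGFR1 line, where 12.7% of genes passed, LBP (-0.34 ± 0.83, edgeR adjusted p = 0.8459) and TGM2 (0.54 ± 0.72, edgeR adjusted p = 0.6966) did not pass. The sign of LBP changed to 0.02 without Fulv+FGF2 replicate 6, and that of TGM2 to -0.53 without Fulv+Palbo+FGF2 replicate 4.

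FGF2 added to palbociclib in set 2 raised TGM2 and LBP over the 4 FGFR2 lines pooled. TGM2 had a median of 4.43 CPM under Palbo+FGF2, against 0.931 CPM under Palbo (22 and 24 libraries), with a log2 fold change of 1.67 ± 0.45 (edgeR adjusted p = 0.002327), and 38% of all genes passed. LBP had a median of 1.83 CPM under Palbo+FGF2, against 0 under Palbo, with 1.80 ± 0.56 (edgeR adjusted p = 0.008606, but 0.05631 by DESeq2). IDO1 had 1.17 CPM, against 0.181 CPM, and its change of 0.78 ± 0.69 did not pass (edgeR adjusted p = 0.3904). The lines went different ways for IDO1. In FGFR2_K660N its median was 5.12 CPM under Palbo+FGF2, against 12.2 under Palbo (0 to 144.1), and in FGFR2_WT 0, against 0.181. It was 14.2 CPM, against 0, in FGFR2_M538I and 1.64, against 0.333, in FGFR2_N550K. The LBP median of FGFR2_K660N was also lower with FGF2, at 4.77 CPM, against 5.98.

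FGF2 or fulvestrant on its own moved none of the 3 past the threshold in the FGFR2 lines. For FGF2 against DMSO (24 and 23 libraries), where 46.2% of all genes passed, the log2 fold changes were 0.06 ± 0.69 for IDO1, 0.53 ± 0.44 for TGM2 and -1.10 ± 0.71 for LBP (edgeR adjusted p = 0.952, 0.3336 and 0.204). The medians were 2.55 CPM of IDO1, 3.59 of TGM2 and 0.648 of LBP under FGF2, against 0.391, 2.20 and 0.871 CPM under DMSO. Without the 6 DMSO libraries that stand apart, the DMSO medians were 0.713, 4.96 and 1.47 CPM, so that the TGM2 median lay lower under FGF2. The log2 fold change of TGM2 was then 0.12 ± 0.43 (edgeR adjusted p = 0.8566). For fulvestrant against DMSO, where 2.72% of genes passed, the log2 fold changes were -0.09 ± 0.73 for IDO1, -0.37 ± 0.50 for TGM2 and -0.48 ± 0.69 for LBP (edgeR adjusted p = 0.9522, 0.6695 and 0.686). Same-numbered pairs of libraries deviated together in 3 of the 4 lines of that comparison. With a replicate block 15.4% of genes passed, and none of the 3 members did (0.049 ± 0.71, -0.26 ± 0.46 and -0.28 ± 0.63). Without the libraries that stand apart the changes were 0.10 ± 0.76, -0.53 ± 0.46 and -0.17 ± 0.65. The standard errors are wide, and a pass that was missed does not show that the levels were alike. FGF2 added to fulvestrant gave 1.19 ± 0.50 for TGM2, with a median of 2.48 CPM under Fulv+FGF2, against 1.42 CPM under Fulv (edgeR adjusted p = 0.05621), while IDO1 (-0.52 ± 0.66, edgeR adjusted p = 0.5686) and LBP (0.45 ± 0.57, edgeR adjusted p = 0.5706) lay further from the threshold, beside 36.1% of all genes that passed. Whether the response to FGF2 differed between the FGFR2 lines and the control lines depended on the test. By edgeR the interaction terms did not pass, with -3.07 ± 2.60 for IDO1, -1.06 ± 0.94 for TGM2 and -4.15 ± 1.66 for LBP (edgeR adjusted p = 0.5942, 0.6138 and 0.194), beside 1.87% of genes that passed. DESeq2 gave -13.18 ± 1.93 for IDO1 (adjusted p = 2.374e-08), and edgeR with no filter gave -4.18 ± 1.14 for LBP (adjusted p = 0.04548). The IDO1 and LBP terms rest on few reads in the control lines, with none of IDO1 under DMSO. All 14 counts of IDO1 in the control lines under FGF2 came from 1 library, GFP replicate 3. That library also had 9.72 CPM of LBP, with 0.523 CPM in the next control library, and 9.91 CPM of TGM2. These terms thus lean on 1 control library.

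In the control lines and the FGFR1 line, most comparisons left all 3 genes under the filter, and their medians were mostly low in both arms. Single FGFR1 libraries of set 1 reached 10.3 CPM of IDO1 under Fulv+FGF2 and 7.61 under Fulv+Palbo+FGF2. FGF2 against DMSO gave medians of 0.255 and 0.246 CPM of TGM2 in the control lines, where 5.96% of all genes passed, and of 0.565 and 0.24 CPM in the FGFR1 line, where 31.6% passed. IDO1 was read in 1 control library under FGF2 (1.33 CPM) and in none under DMSO. Fulvestrant against DMSO gave medians of 0.225 and 0.246 CPM of TGM2 in the control lines (1.52% of genes passed) and of 0.489 and 0.24 CPM in the FGFR1 line (0.0791% passed). FGF2 added to fulvestrant gave medians of 0.0978 and 0.225 CPM of TGM2 in the control lines, where 11.6% passed and IDO1 had no read in either arm. FIIN-3 added to FGF2 left 11 counts of TGM2 over 12 control libraries, with a highest value of 0.529 CPM, against 9.91 CPM under FGF2 alone. There 24.3% of genes passed, TGM2 was under the filter, and DESeq2 gave -3.07 ± 1.15 (adjusted p = 0.03656). Most of the FGF2 counts came from 1 library, GFP replicate 3, and the next highest FGF2 library of either control line had 1.72 CPM. In the FGFR1 line the medians of TGM2 were 0.381 CPM under FIIN-3+FGF2 and 0.565 CPM under FGF2, where 31.3% passed. Palbociclib added to Fulv+FGF2 in the control lines gave TGM2 medians of 0.0572 and 0.0978 CPM, where 25.3% passed. The FGF2 response of the FGFR1 line against that of the control lines could not be tested for any of the 3 genes, while 3.24% of all genes passed.

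In set 2 the 3 genes were also low in these lines. Palbo+FGF2 against Palbo gave 2 and 13 counts of TGM2 in the control lines, where 1.08% of genes passed, and medians of 0.676 and 0 CPM in the FGFR1 line, where 24.8% passed. Palbo+FGF2+FIIN-3 against Palbo+FGF2 gave 4 and 2 counts of TGM2 in the control lines, where 9.21% passed, and 14 and 16 counts in the FGFR1 line, where 16.2% passed. IDO1 had no read in these control libraries or in these FGFR1 libraries, apart from 25 counts in 1 FGFR1 library under Palbo. In FGFR2_N550K of set 1, Fulv+FIIN-3 left 6 counts of IDO1, 6 of TGM2 and 16 of LBP, against medians of 3.42, 0.75 and 1.45 CPM under Fulv. All 3 were under the filter there, where 31.9% of genes passed, and DESeq2 gave adjusted p of 0.1814, 0.4462 and 0.1851.

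Before any drug, TGM2 was higher in FGFR2_K660N and in the FGF3 line than in GFP cells. FGFR2_K660N had 5.58, 6.70, 6.77, 10.01, 16.9 and 19.4 CPM of TGM2 under DMSO, against 0 to 0.706 CPM with a median of 0.246 in GFP cells. The arms did not overlap, the pooled ratio was 43.3, and the log2 fold change was 5.27 ± 0.59 (edgeR adjusted p = 0.0001046), where 1.51% of all genes tested passed. GFP cells had 12 counts of TGM2 over the whole group. TGM2 thus passed the filter on low counts through FGFR2_K660N alone, and its p is to be read with that limit. IDO1 and LBP were under the filter there. FGFR2_K660N had 0 to 15.7 CPM of IDO1 with a median of 5.34, against 0 reads in GFP cells, at least 93.2-fold higher (DESeq2 adjusted p = 0.0005579). It had 477 counts of LBP, against 7 in GFP cells, 58.98-fold higher per library size (DESeq2 adjusted p = 0.01026). TGM2 lay lower under DMSO in the other FGFR2 lines, with medians of 1.53 CPM in FGFR2_WT, 0.627 in FGFR2_M538I and 0.563 in FGFR2_N550K. Its median was 0.24 CPM in the FGFR1 line and 0.228 in parental cells. Without the libraries that stand apart, 2 in each of these 3 FGFR2 lines, the TGM2 medians were 2.76, 0.627 and 2.81 CPM. LBP was not particular to FGFR2_K660N: FGFR2_WT had 605 counts of it under DMSO, at 0 to 43.5 CPM. Its median in FGFR2_WT was 2.95 CPM, or 13.7 without the libraries that stand apart, against 7.71 in FGFR2_K660N. All 3 genes were under the filter in these lines against GFP cells, where 0.00808% of genes passed for FGFR2_WT, 0.0159% for FGFR2_M538I, 1.58% for FGFR2_N550K and 0.00787% for the FGFR1 line. IDO1 spread widely within these lines, with 0 to 18.9 CPM in FGFR2_WT, 0 to 14.5 in FGFR2_N550K and 0 to 6.60 in FGFR2_M538I.

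The FGF3 line carried TGM2 without the other 2 genes. IDO1 had no read in any FGF3 library, and LBP reached at most 1.96 CPM. TGM2 under DMSO was 2.74, 5.64, 6.61, 9.66 and 14.4 CPM in the FGF3 line, against 0 to 0.706 CPM in GFP cells, with a log2 fold change of 4.86 ± 0.67 (edgeR adjusted p = 0.0004668) where 7.18% of genes passed. Here too TGM2 passed the filter on low counts through the arm without GFP alone, which limits its p. Leaving out 1 library gave 4.50 to 5.35, with adjusted p from 1.997e-05 to 0.004107. The count over all genes, 870, was 428, 441 and 512 without FGF3 replicates 2, 4 and 5, 477 without GFP replicate 4 and 2306 without GFP replicate 6, the library of this comparison that stands apart. Of the 5 FGF3 DMSO libraries, 4 had a depth under the set 1 median divided by 3. Under fulvestrant TGM2 was 16.9, 20.2, 23.2 and 38.4 CPM, above every DMSO library of the FGF3 line. The log2 fold change of 1.53 ± 0.35 did not pass over all genes (edgeR adjusted p = 0.7266). In that comparison edgeR called 0 genes (0%), with 410 at an unadjusted p under 0.05, and DESeq2 called 4. Every same-numbered pair of its libraries deviated together (r of 0.488, 0.156 and 0.235), and with a replicate block the change of 1.52 ± 0.28 passed (edgeR adjusted p = 0.03889), 1 of 6 genes called. With no filter it also passed (1.56 ± 0.31, adjusted p = 0.0009483), while without 1 library it gave 1.23 to 1.90 and did not pass.

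TGM2 was low under both inhibitors in the FGF3 line. It was 0 to 1.95 CPM with a median of 0.488 under Fulv+Tram, and 0 to 1.86 CPM with a median of 0.202 under Fulv+FIIN-3, against a median of 21.7 CPM under Fulv. The log2 fold changes were -5.52 ± 0.53 for trametinib, beside 7.43% of all genes past the threshold, and -5.65 ± 0.49 for FIIN-3, beside 13.1%, and neither arm overlapped with Fulv. The 2 comparisons share the 4 Fulv libraries and are given without a test. Trametinib over FIIN-3 in pooled CPM was 1.1, from 22 and 8 counts, while 17.2% of genes passed in that contrast. In set 2, TGM2 had no read in the 4 Fulv+Palbo+Tram libraries and was 0 to 2.35 CPM with a median of 0.659 under Fulv+Palbo+FIIN-3, so it was at least 3.37-fold lower under trametinib, beside 6.01% of genes past the threshold. FIIN-3 alone had 0 to 2.02 CPM of TGM2 with a median of 0.584 in set 1, against 2.74 to 14.4 CPM under DMSO, with no overlap beside 10.4% of genes called. It was under the filter of edgeR, and DESeq2 gave -3.91 ± 0.65 (adjusted p = 1.165e-07). In set 2 the FIIN-3 libraries had 0 to 1.77 CPM of TGM2 with a median of 1.31, against 0 to 12.6 CPM with a median of 4.65 in the control group; TGM2 was again under the filter, where 6.72% of genes passed, and DESeq2 gave an adjusted p of 0.2095. TGM2 was high under palbociclib, at 2.71 to 36.1 CPM with a median of 18.5 under Fulv+Palbo in set 1. In set 2 it was 0.608 to 21.5 CPM with a median of 11.3 under Palbo, against 0 to 12.6 CPM with a median of 4.65 in the control group, a change of 0.90 ± 0.67 that did not pass (edgeR adjusted p = 0.5136) where 6.53% of genes did. In that control group, 1 library stands apart and has low depth, and without it the median was 7.76 CPM and the change 0.76 ± 0.58 (edgeR adjusted p = 0.4341), with 1588 genes called in place of 701.

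**Figure D4:**
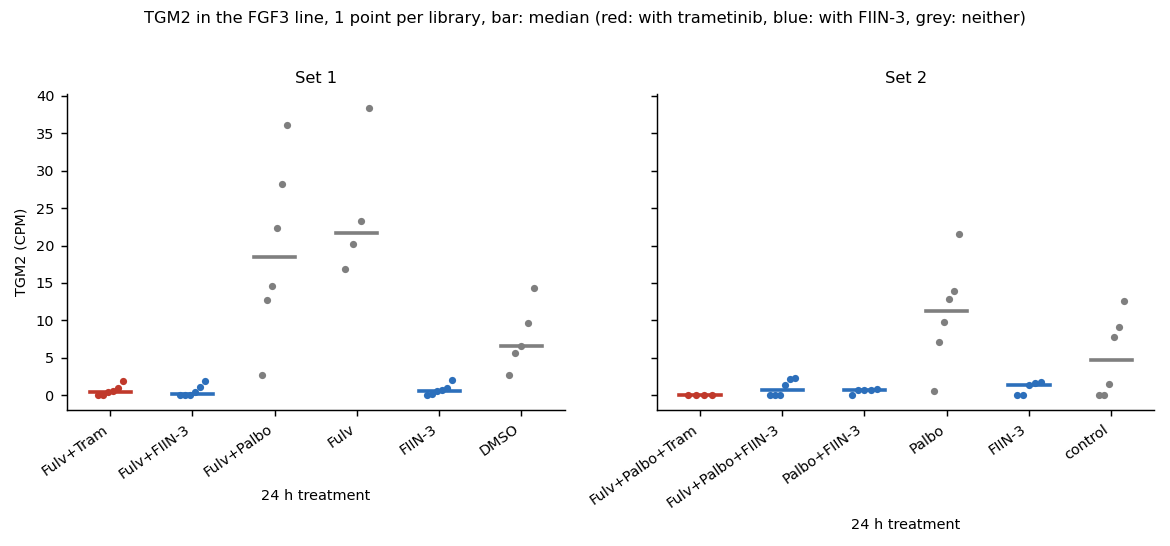
TGM2 in each library of the FGF3 line by treatment, in CPM, with a bar at the median, set 1 and set 2 side by side. The arms with trametinib or FIIN-3 stay at or below 2.35 CPM, while Fulv libraries reach 38.4 CPM and Fulv+Palbo libraries 36.1 CPM.

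DUSP6, a phosphatase gene that ERK signalling induces, served as a check of the drugs. In the FGFR2 lines of set 1 it was 1.07 to 6.36 CPM with a median of 2.40 under Fulv+FGF2+Tram and 1.17 to 54.9 CPM with a median of 2.62 under Fulv+FGF2+FIIN-3. The high end came from FGFR2_N550K, in which DUSP6 was 35.6 to 54.9 CPM under Fulv+FGF2+FIIN-3, against 2.58 CPM (median) under Fulv+FGF2+Tram and 111.3 to 185.5 CPM under Fulv+FGF2. In set 2 the FIIN-3 arm of that line had 77.2 to 93.5 CPM. The set 1 FIIN-3 arm of FGFR2_N550K had 2 counts of IDO1, 4 of TGM2 and 48 of LBP, and its pooled LBP of 1.47 CPM was the highest of the 4 FGFR2 lines in that arm. This did not hold in set 2, where its pooled LBP under Fulv+Palbo+FGF2+FIIN-3 was 0.46 CPM. There FGFR2_K660N had 1.88, FGFR2_M538I 1.51 and FGFR2_WT 0.277 CPM. Without FGF2, FIIN-3 left 1.92 CPM of DUSP6 in FGFR2_N550K, where IDO1 had no read and TGM2 had 6 counts, against medians of 1.09 and 0.563 CPM under DMSO. None of the 3 passed the filter in that comparison, where 25.7% of all genes tested passed the threshold.

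Markers of other cells overlapped between the 2 arms. The summed level of 12 markers of leukocytes, fibroblasts, endothelium and hepatocytes was 11.7 to 33.6 CPM with a median of 22.4 under trametinib and 13.2 to 32.7 CPM with a median of 21.3 under FIIN-3 in the FGFR2 lines of set 1. In set 2 it was 22.1 to 49.8 CPM with a median of 29.9 under trametinib and 20.5 to 46.7 CPM with a median of 30.5 under FIIN-3. The hepatocyte markers ALB and APOA1, the leukocyte marker PTPRC and the endothelial marker PECAM1 had a median of 0 in each line by treatment group. The leukocyte marker CD14 reached group medians of 1.86 CPM in set 1 and 1.92 in set 2, and the endothelial marker VWF 0.559 and 0.348 CPM. The fibroblast marker COL1A1 was read in every library, with group medians of 11.3 to 37.4 CPM in set 1. It made up most of the summed level, so the sum says little of the other markers. The part of other cells in the result was not tested. Without the libraries that stand apart, 1 in each arm of set 1, the trametinib medians were 13.85 CPM of IDO1, 18.3 of TGM2 and 21.6 of LBP.

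Across line by treatment groups, and among genes past a minimum mean level, IDO1 and LBP followed interferon-stimulated genes most closely. Likeness was Pearson's r over the mean log2(CPM + 1) of 64 groups of set 1, among 10602 genes, with the value over the 48 groups of set 2 given second. For IDO1 the 4 nearest genes were IFIT2 (0.923 and 0.930), IFIT3 (0.919 and 0.935), IRF1 (0.889 and 0.876) and IFIT1 (0.863 and 0.909). IFIT1, IFIT2 and IFIT3 are interferon-induced antiviral proteins, and IRF1 is a transcription factor induced by interferon. For LBP they were IFIT2 (0.903 and 0.896), IFIT3 (0.887 and 0.893), IRF1 (0.876 and 0.871) and ISG15 (0.867 and 0.855), the last a ubiquitin-like protein also induced by interferon. TGM2 had lower values, and its 4 nearest genes were S100A9 (0.785 and 0.743), RGS14 (0.756 and 0.798), SECTM1 (0.735 and 0.799) and LRRC8A (0.727 and 0.801). S100A9 is a calcium-binding protein of inflammation and RGS14 a regulator of G protein signalling. IFIT3 came next for TGM2, at 0.714 in set 1 and, above all 4 of those, 0.856 in set 2; it was named after its values were seen. The FGF3 line sets TGM2 apart: without it, r between TGM2 and IDO1 in set 1 was 0.899, against 0.716 with it, and between TGM2 and LBP 0.907, against 0.708, while IDO1 and LBP gave 0.897 and 0.900. Within lines over the trametinib libraries of the FGFR2 lines, r with IFIT2 in set 1 was 0.817 for IDO1 and 0.72 for LBP. In set 2 it was 0.289 and -0.092, so the likeness over groups was not seen there within that arm. The groups include the trametinib and FIIN-3 arms that chose the genes. They also share lines, treatments and library preparation, so these values are descriptions with no p.

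**Figure D5:**
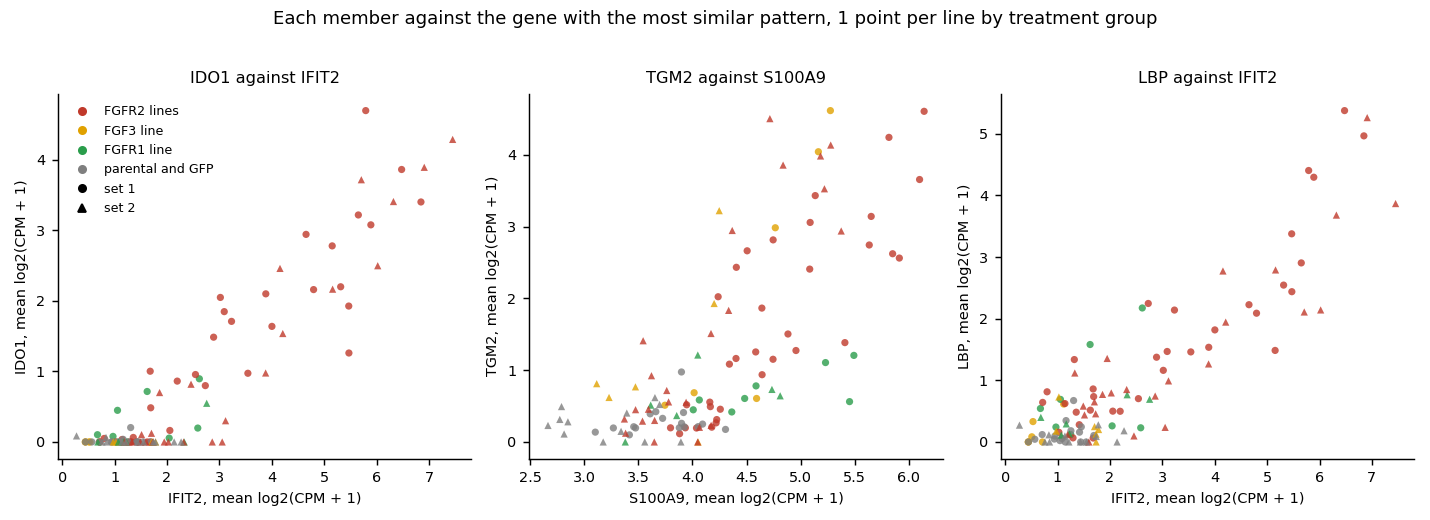
Group means of log2(CPM + 1) for IDO1 against IFIT2, TGM2 against S100A9 and LBP against IFIT2, coloured by line class, with circles for set 1 and triangles for set 2. IDO1 and LBP climb with IFIT2 in the FGFR2 lines, while TGM2 scatters more widely against S100A9, with groups of the FGF3 line among its highest.

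Other genes of the 3 pathways moved less evenly in the test of FIIN-3+FGF2 against FGF2 in the FGFR2 lines. Of 13 tested genes of an interferon gamma response list, 2 passed higher and 8 lower, with a median log2 fold change of -0.64, beside 0.022 over all genes tested and the 55.5% that passed. Among those that fell were GBP1 (-2.55, edgeR adjusted p = 1.265e-07) and GBP2 (-1.16, edgeR adjusted p = 1.444e-06), interferon-induced GTPases, and IRF1 (-1.49, edgeR adjusted p = 2.69e-09). PSMB8, an immunoproteasome subunit, rose (0.46, edgeR adjusted p = 6.728e-05). Of 12 tested tryptophan pathway genes, 3 passed higher and 6 lower (median -0.13), IDO1 itself among those lower. KMO, which converts kynurenine onward (-1.19, edgeR adjusted p = 1.068e-12), and AHR, the receptor that kynurenine can bind (-1.41, edgeR adjusted p = 4.042e-11), fell, while AFMID, which yields kynurenine from its formyl precursor, rose (0.71, edgeR adjusted p = 8.004e-11). Of 9 tested endotoxin recognition genes, 6 passed lower and 0 higher (median -0.45), LBP itself among them. They also included CD14, the co-receptor that takes lipopolysaccharide from LBP (-1.19, edgeR adjusted p = 0.005847), and the adaptor TICAM1 (-0.58, edgeR adjusted p = 8.197e-06).

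In the same test of FIIN-3+FGF2 against FGF2, 55.5% of all genes passed, 29% higher and 26.5% lower, so a pass is common. Of 9 tested acute-phase and STAT3 genes, 1 passed higher and 2 lower. The protease inhibitor SERPINA3 fell (-1.80, edgeR adjusted p = 0.0001409) and the complement gene C3 rose (0.68, edgeR adjusted p = 0.00662). The retinoic acid list, fixed because TGM2 is a retinoic acid target, had 9 tested genes, 4 that passed higher and 1 lower, with DHRS3, a retinaldehyde reductase (1.19), and the receptor RXRA (0.76) among those higher. The 1 lower was RARRES1 (-1.91), named after its values were seen. TGM2 was the 1 gene to pass of 3 tested transglutaminases. RPRD1B, looked at because it overlaps the 3′ end of TGM2, fell by 0.46 on the log2 scale (edgeR adjusted p = 0.005068). In set 2, Palbo+FGF2+FIIN-3 against Palbo+FGF2 gave 1 higher and 8 lower of 12 interferon gamma response genes (median -0.49, beside 0.016 over all genes), with GBP1 (-3.47, edgeR adjusted p = 1.107e-13) again among those that fell. The tryptophan list, with IDO1, gave 3 higher and 7 lower of 11, and the endotoxin list, with LBP, 1 higher and 5 lower of 8. Over all genes 54.1% passed there, 27.3% higher and 26.8% lower, so a pass in these lists is common. In the contrast that chose the members, trametinib over FIIN-3 in set 1, where 50.3% of all genes passed, 9 of 13 interferon gamma response genes were higher past the threshold and 1 lower (median 0.93, beside -0.011 over all genes), with IRF1 at 2.86 and GBP1 at 4.10. In set 2, where 54.7% of all genes passed, it was 10 of 12 higher and 1 lower (median 1.10, beside -0.013). Since this contrast chose the members, these counts are a description and carry no support.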

How the data were processed

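SMART-Seq2 libraries were aligned with STAR to hg19, per the submitters' processing notes, whose versions are not given; the labels name neither the counting program nor its annotation. Of the deposited files, one gives read counts for 54592 genes. Another, also made by the authors, gives log2(TPM + 1), without a statement of the step that made it; 95 of its columns were used for levels per length and 552 columns of per-sample values were not used. IDO1, TGM2 and LBP and the gene lists were chosen with earlier results of these data known, and the comparisons of a single inhibitor arm with the arm without it, and the list of chromosome neighbours, were added after seeing the data.

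Groups came from the sample titles and the set from the run of title numbers; the FGF3 groups were put in a set by analogy, from their treatments and from which numbers each run already held. Counts were scaled by TMM and tested in edgeR 4.0.16 under R 4.3.3 (filterByExpr with a minimum count of 10, glmQLFit, glmQLFTest, Benjamini-Hochberg over all genes tested, threshold 0.05), with line as an additive term where lines were pooled. Each fit used only the libraries of its comparison, and comparisons that share an arm are not independent. Standard errors were taken from the log2 fold change and its F value. Levels are CPM on TMM-scaled library sizes, and log2 levels use a pseudocount of 1. Ratios of pooled counts per library size carry exact counting intervals (95%), and a group without reads was set to a floor of 3 counts over the group. The genes named beside the members were DUSP6 and the introduced genes, the 4 genes nearest to each member by Pearson's r in set 1 among those with a mean log2(CPM + 1) of at least 2, the cell type markers, and up to 4 members of each list by smallest adjusted p. RPRD1B and RARRES1 fall outside that rule. Alternatives were DESeq2 1.42.0, its size factors in edgeR, no filter, a replicate block, leaving out libraries that stand apart or of low depth, and, for single lines with an arm of 5 or fewer, each library in turn. The procedure was tried on simulated data with known changes, placed in genes of higher counts and with 1 fixed spread for all genes. It does not cover genes without a read in many libraries, as the members were. Depth limits the genes with few reads: 75 member tests fell under the filter.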

Additional observations from a re-analysis of the deposited data

Results flagged for a closer look

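Each member was looked at in each group of 4 to 10 libraries in which most libraries had a read of it, on log2(CPM + 1). In 7 of these combinations of gene and group (5.556%) 1 library lay far from the rest, and chance gives about 1 in 20. None of these libraries stood apart by MT-RNR2 or had low depth. In FGFR2_K660N under Fulv+Palbo+FGF2, replicate 5 had 107.7 CPM of IDO1, against 8.51 CPM in the next library, with 109.7 CPM of LBP and 25.6 CPM of TGM2 in the same library. In GFP cells under FGF2, replicate 3 had 9.91 CPM of TGM2, against 0.895 CPM in the next library. That library also had 9.72 CPM of LBP and 1.33 CPM of IDO1, and it was the only one of its group with an IDO1 read. In the FGFR1 line under FGF2, the library highest for TGM2 (4.89 CPM, next 0.79 CPM) was also the highest for LBP (3.09 CPM) and IDO1 (2.57 CPM). The other 4 were single-gene values: LBP in FGFR2_WT under Fulv at 2.96 CPM (next 0.244 CPM), TGM2 in GFP cells under Fulv+Palbo+FGF2 at 0.729 CPM (next 0.215 CPM), TGM2 in the FGFR1 line under FIIN-3 in set 2 at 3.01 CPM (next 1.37 CPM), and TGM2 in the FGF3 line under Palbo+FIIN-3 at 0, the lowest (next 0.665 CPM).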

How the results depend on the processing

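The 51 results on members were recomputed under 250 alternatives. Apart from leaving out 1 library, 92.86% were the same by the rule of their kind. For a test this means the same direction and side of the threshold. For a comparison without a test it means the same direction and a value within 1 standard deviation among libraries. For a count of groups it means a change of at most 1.5 times. Reversals were of changes that did not pass: IDO1 under FGF2 against DMSO in the FGFR2 lines was -0.09 by DESeq2, and IDO1 under Fulv against DMSO was 0.049 with a replicate block and 0.10 without the libraries that stand apart. With no filter, 5 passed that had not: TGM2 under Fulv against DMSO in the FGF3 line (1.56), TGM2 under Fulv+FGF2 against Fulv (1.20), LBP under Fulv+Palbo+FGF2 against Fulv+FGF2 (1.40), IDO1 under Palbo+FGF2 against Palbo (0.77) and the LBP interaction (-4.18). With a replicate block, TGM2 under Fulv in the FGF3 line (1.52) and LBP under Fulv+Palbo+FGF2 (1.5) passed. DESeq2 called the IDO1 interaction (-13.18) and lost LBP under Palbo+FGF2 against Palbo (2.16). The cause was not tested. In log2(TPM + 1), the set 1 differences between trametinib and FIIN-3 in the FGFR2 lines were 3.51 for IDO1, 2.70 for TGM2 and 3.91 for LBP. These 3 kept their direction but lay further than 1 standard deviation from the fitted changes. The same for set 2 was not run.

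Leaving out 1 library gave 1.23 to 1.90 for TGM2 under Fulv against DMSO in the FGF3 line, 4.50 to 5.35 for TGM2 in the FGF3 line against GFP cells, and, for Fulv+Palbo+FGF2 against Fulv+FGF2 in the FGFR1 line, -1.60 to 0.021 for LBP and -0.53 to 0.83 for TGM2. The pairs used for the replicate block are neighbouring title numbers, and the labels do not say what they share. Every pair deviated together (r over 0.1) in 10 of 55 comparisons within a line, 5 of them between Fulv and DMSO (FGFR2_WT, FGFR2_N550K, FGFR2_K660N, FGFR1 and FGF3). Counts over all genes that moved by over 1.5 times were as follows. FGFR2_K660N against GFP gave 1.51% of the genes tested, but 2.73% by DESeq2, 6.66% with no filter and 3.3% without the libraries that stand apart; FGF3 against GFP gave 870 genes, but 1580, 1536 and 2306. FGF2 against DMSO in the FGFR2 lines gave 6601, but 4104 without the libraries that stand apart. Fulv against DMSO gave 2.72% in the FGFR2 lines, but 5.47% by DESeq2, 1.77% with no filter and 15.4% with a replicate block, and 0 genes in the FGF3 line, but 4, 53 and 6, and 1 without Fulv replicate 3. Palbo against control in the FGF3 line gave 701, but 1588 without libraries of low depth, and the FGF2 interaction 1.87%, but 3.4% by DESeq2 and 3.54% with a replicate block.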
